A study of Mus musculus with 36 samples.

Results

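The bile acid genes described here are 10 genes chosen by symbol, of 24066 symbols listed on 1 row of the deposited liver tables. They encode the synthesis enzymes Cyp7a1, Cyp8b1, Cyp27a1 and Cyp7b1, the conjugating enzymes Slc27a5 and Baat, the transporters Slc10a1 and Abcb11, and the nuclear receptors Nr1h4 and Nr0b2. All 10 passed the filter on low values and are among the 13215 genes tested. Livers came from wild-type male C57BL/6JRj mice, 16 weeks old, fed chow without restriction under equal hours of light and dark, with lights on at Zeitgeber time (ZT) 0. The IH mice were kept for 4 weeks under chronic intermittent hypoxia, with 60 cycles per hour between 5% and 21% inspired oxygen from ZT0 to ZT8 each day. The control mice received air cycled in the same way. Each condition had 3 mice at each of ZT0, ZT4, ZT8, ZT12, ZT16 and ZT20, which gave 18 libraries per condition and 36 in all. All mice were male, of a single strain, and housed 5 per cage, and the labels do not say which mice shared a cage. Every mouse was killed at a single time point, so a time course joins different animals.

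Hepatocytes make bile acids from cholesterol. Cyp7a1 starts the classical pathway, Cyp27a1 and Cyp7b1 carry the alternative one, and Cyp8b1 adds the hydroxyl group that makes cholic acid. Slc27a5 and Baat join the acids to amino acids, Abcb11 pumps the conjugates into bile, and Slc10a1 takes returning bile acids up from the blood. Nr1h4 (the bile acid receptor FXR) induces Nr0b2 (SHP), a repressor, when bile acids rise, and Cyp7a1 is known for its strong daily rhythm in rodent liver.

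The values are FPKM, fragments scaled to transcript length and to the mapped fragments of the library, and the number of reads behind each is not known. The libraries carried liver RNA: the 6 hepatocyte markers summed to between 41300 and 67580 FPKM. The 4 pancreas markers stayed under 0.1 FPKM in every library. Of 6 cholangiocyte markers only Cftr did so, and their sum was 21.9 to 60.5 FPKM in control and 22.2 to 66.8 FPKM in IH. Of 4 intestinal markers only Fgf15 did so, and their sum was 35.0 to 74.6 FPKM in control and 34.2 to 70.4 FPKM in IH. The 3 libraries that stood apart did so by the acute-phase gene Saa1, which exceeded 10000 FPKM in IH ZT0 replicate 2 (22870 FPKM), control ZT12 replicate 2 (20550 FPKM) and control ZT16 replicate 3 (12910 FPKM). Control ZT12 replicate 2 also had the highest sum of FPKM, 758113 against 540095 to 579428 in the others. A further 5 libraries exceeded 1000 FPKM, so that 6 of the 8 libraries over that level were controls, among them replicates 1 and 3 of ZT4. Results are therefore given with and without these libraries where they differ.

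Promoters are shown for 4 members, those called higher in IH at ZT4 (Slc10a1 and Nr1h4) and those with the largest fitted amplitude in control (Cyp8b1 and Abcb11), so that they can be set beside the time courses. Each window runs from 250 bases before to 50 bases after a RefSeq start (GRCm38.p6), 5′ to 3′ on the gene's strand. Capitals mark a match to AGGTCA, the half-site of many nuclear receptors, or to CAAGGNCA, a site of the type bound by LRH-1, on either strand.
Slc10a1, chr12:80968656-80968955, minus strand: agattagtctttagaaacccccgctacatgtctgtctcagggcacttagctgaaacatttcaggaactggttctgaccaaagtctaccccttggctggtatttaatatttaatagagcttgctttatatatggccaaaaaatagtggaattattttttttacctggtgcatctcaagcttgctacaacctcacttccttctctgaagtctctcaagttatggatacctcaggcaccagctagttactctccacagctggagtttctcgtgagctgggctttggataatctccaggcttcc
Nr1h4, chr10:89506609-89506908, minus strand: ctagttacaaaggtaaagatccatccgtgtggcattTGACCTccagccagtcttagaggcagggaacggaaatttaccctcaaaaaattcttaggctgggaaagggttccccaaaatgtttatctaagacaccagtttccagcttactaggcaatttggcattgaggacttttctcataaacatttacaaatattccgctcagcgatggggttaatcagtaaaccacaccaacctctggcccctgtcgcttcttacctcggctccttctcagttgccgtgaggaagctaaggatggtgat
Abcb11, chr2:69342567-69342866, minus strand: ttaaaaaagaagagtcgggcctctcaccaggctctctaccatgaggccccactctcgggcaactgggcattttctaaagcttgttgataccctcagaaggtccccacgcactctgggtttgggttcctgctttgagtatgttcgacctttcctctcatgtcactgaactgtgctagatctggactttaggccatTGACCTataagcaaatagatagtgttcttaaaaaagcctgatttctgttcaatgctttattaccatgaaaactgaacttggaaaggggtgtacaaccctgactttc
Cyp8b1, chr9:121916256-121916555, minus strand: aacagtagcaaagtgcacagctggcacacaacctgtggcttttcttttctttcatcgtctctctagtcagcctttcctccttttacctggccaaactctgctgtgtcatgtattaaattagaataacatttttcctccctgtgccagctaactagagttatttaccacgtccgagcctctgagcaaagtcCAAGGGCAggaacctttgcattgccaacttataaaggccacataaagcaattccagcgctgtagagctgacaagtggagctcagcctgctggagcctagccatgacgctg

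The Slc10a1 window sits at the 5′ end of the gene and holds none of the 4 motifs searched, which were also CACGTG (the E-box) and TTANGTAA (the D-box). A second RefSeq window of the gene, chr12:80968030-80968329, holds AGGTCA at base -87 from its start. The Nr1h4 window lies at an internal start of the annotated gene (chr10:89454234-89533585), and AGGTCA is found on its reverse strand at base -214. In Abcb11 the half-site is on the reverse strand at base -56, and in Cyp8b1 CAAGGGCA begins at base -60. Of the other members with a RefSeq window, Cyp27a1 holds none of the motifs, and Nr0b2 holds CAAGGCCA at base -201 and, overlapping it, CACGTG at base -195. Of 32851 mouse promoter windows of this length, 16.3% hold AGGTCA, 6.71% CAAGGNCA, 7.15% CACGTG and 2.32% TTANGTAA. A match is only a run of letters, and binding was not measured. Cyp7a1 (chr4:6265612-6275633), Cyp7b1 (chr3:18071950-18243338), Baat (chr4:49489422-49506557) and Slc27a5 (chr7:12988346-12998192) had no entry. In the GENCODE annotation all 10 members are protein-coding, and exons of Abcb11 alone overlap those of other genes, Gm13613 and Gm13614 on the opposite strand. The library kit keeps strand, but whether the counting used it is not given in the sources used here.

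On the FPKM scale, which is per transcript length, the members spanned more than an order of magnitude. Slc27a5, the ligase that activates bile acids, and Slc10a1 were highest in control, at 335 ± 19.3 and 330.0 ± 66.8 FPKM (mean ± SD over 18 control libraries). Cyp27a1 followed at 262 ± 30.2, Cyp8b1 at 163 ± 81.4, Cyp7b1 at 144 ± 48.4 and Baat at 128 ± 20.3 FPKM. Lower still were Abcb11 (76.1 ± 26.1), Nr1h4 (58.6 ± 15.3), Nr0b2 (24.4 ± 7.76) and Cyp7a1 (17.5 ± 9.23 FPKM). Much of the spread of Cyp8b1 and Abcb11 lay between time points. Cyp7a1 also varied widely between mice of a time point, with an SD of 12.5 FPKM at control ZT12 and 0.76 FPKM at control ZT4 (n = 3 each). Neighbours in this order overlapped over the day, for example Slc27a5 and Slc10a1, or Nr0b2 and Cyp7a1. Under IH, 2 pairs of neighbours changed places: Slc10a1 came first at 432 ± 116 FPKM, ahead of Slc27a5 at 324 ± 30.8 FPKM, and Baat (130 ± 19.1 FPKM) stood above Cyp7b1 (121 ± 38.9 FPKM).

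**Figure D1:**
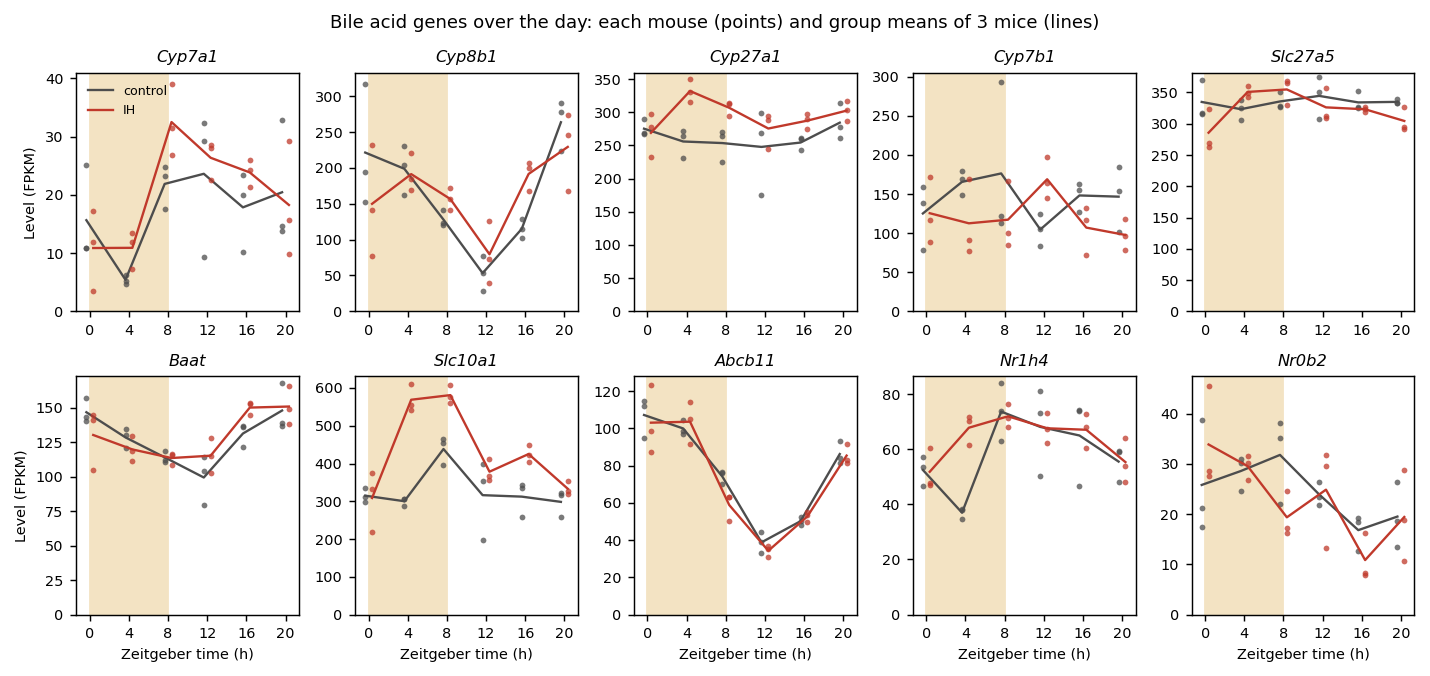
Level in FPKM (vertical axes, from 0) against Zeitgeber time in hours for each of the 10 genes. Points are single mice, lines join means of 3 mice, grey is control and red is IH, and the shaded band is ZT0 to ZT8, when IH mice received hypoxia. Slc10a1 was higher in all 3 IH mice at ZT4, ZT8 and ZT16. The Abcb11 curves of both conditions lie close except at ZT8, where all 3 IH mice were lower.

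The first comparison asked whether the genes cycled within each condition. A 24-h cosine was fitted to log2(FPKM + 1), and a nominal P of 0.01 or less was called rhythmic, the threshold that the study used with another algorithm. In control 4 of the 10 members were called (Cyp8b1, Abcb11, Nr0b2 and Baat), against 20.0% of all genes tested. In IH 5 were called (Cyp7a1, Slc10a1, Abcb11, Nr1h4 and Baat), against 39.9% of all genes. With 10 genes, 1 call more or less moves these shares by 10 percentage points, and neither is read as particular to the members.

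Abcb11, the bile salt export pump, had the clearest rhythm in both conditions. In control its 3 mice per time point ranged from 94.8 to 115 FPKM at ZT0 and from 32.9 to 44.4 FPKM at ZT12. Under IH the ranges were 87.2 to 123 FPKM at ZT0 and 31.0 to 36.6 FPKM at ZT12, so ZT0 and ZT12 did not overlap in either condition. The highest group mean was 2.76 times the lowest in control and 3.02 times in IH. The fitted peak was at 1.20 ± 0.32 h (SE, n = 18; P = 3.05e-09) in control and at 0.60 ± 0.32 h (P = 3.42e-09) in IH. Amplitudes, the distance from the daily mean to the peak on the log2 scale, were 0.72 ± 0.06 and 0.78 ± 0.06 (SE). Both rhythm calls held in all 18 fits that left out 1 library of the condition. At ZT8, the end of the daily hypoxia, the IH mice had 63.1, 63.2 and 50.2 FPKM and the control mice 76.5, 69.9 and 76.1 FPKM. The groups did not overlap there, and the difference of -0.34 ± 0.12 on the log2 scale did not pass adjustment (adjusted p = 0.86).

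Cyp8b1, the sterol hydroxylase of cholic acid synthesis, swung most in control. Its control mice had 223, 291 and 278 FPKM at ZT20 and 54.0, 28.9 and 76.9 FPKM at ZT12. Under IH they had 168, 245 and 274 FPKM at ZT20 and 40.0, 72.6 and 126 FPKM at ZT12. The high and low times were the same, but ZT16 was already high in IH, at 200.2, 207 and 168 FPKM against 102, 129 and 114 FPKM in control, without overlap. The control cosine peaked at 23.7 ± 0.61 h with an amplitude of 1.00 ± 0.16 (SE, n = 18; P = 2.89e-05). In IH the amplitude was 0.42 ± 0.20 and the cosine was not called (n = 18, P = 0.15), although an F test over the 6 time points without a cosine shape gave P = 0.0073. The test of the difference between both cosines gave P = 0.090 (n = 36), or 0.92 after adjustment, so a loss of rhythm was not shown. The IH ZT0 values were 141, 76.7 and 232 FPKM, of which the lowest belongs to the library with the highest Saa1. Without that library the P of the cosine in IH was 0.015 (n = 17).

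Baat, which conjugates bile acids to amino acids, was rhythmic in both conditions at a smaller amplitude. Its group means ran from 99.3 ± 17.7 (SD, n = 3) at ZT12 to 148 ± 17.6 FPKM (SD, n = 3) at ZT20 in control. In IH they ran from 114 ± 4.45 FPKM (SD, n = 3) at ZT8 to 151 ± 13.8 FPKM (SD, n = 3) at ZT20. The fitted peak was at 22.3 ± 0.73 h (n = 18, P = 0.00022) in control and at 19.2 ± 0.81 h (n = 18, P = 0.00073) in IH, a difference of -3.14 ± 1.09 h (IH minus control). This was the only member with an unadjusted P under 0.05 for a difference between the cosines (n = 36, P = 0.023; adjusted p = 0.92). At ZT16 the IH mice had 153, 153 and 144 FPKM and the control mice 136, 137 and 121 FPKM, without overlap.

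Over all members, the cosines of IH and control differed in none after adjustment (limma, adjusted p from 0.92 to 0.93), as in 0.0% of all genes, and in 1 at an unadjusted P under 0.05, against 4.91% of all genes. With condition by time point as a factor in place of the cosine the count was also 0, with 18 genes called in the whole table. A gene called in a single condition is therefore not shown to have gained or lost its rhythm.

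Cyp7a1, the rate-limiting enzyme of the classical pathway, was called in IH (peak at 12.3 ± 0.85 h, amplitude 0.81 ± 0.18, n = 18, P = 0.0012) and not in control (14.7 ± 1.5 h, 0.58 ± 0.23, P = 0.062). Slc10a1, the sodium-dependent uptake transporter, was called in IH (7.74 ± 0.91 h, 0.39 ± 0.09, n = 18, P = 0.0022) and not in control (7.95 ± 2.06 h, 0.17 ± 0.09, P = 0.21). Nr1h4 was called in IH (9.91 ± 0.88 h, 0.22 ± 0.05, n = 18, P = 0.0016), and in control its cosine had the larger amplitude but missed the threshold (13.3 ± 1.17 h, 0.33 ± 0.10, P = 0.015). With a spread shared by both conditions Nr1h4 was instead called in control (n = 36, P = 0.0014) and not in IH (P = 0.037), and JTK_Cycle, a rank-based test of rhythm, called neither Nr1h4 (n = 18, P = 0.021) nor Cyp7a1 (P = 0.012) in IH. An F test over the 6 time points called both in control (n = 18, P = 0.0020 for Nr1h4 and 0.0089 for Cyp7a1), and median ratio scaling called Nr1h4 there (P = 0.00084). The control results of these 3 genes also depended on which libraries were used. Without the 3 libraries the control P was 0.0030 for Cyp7a1, 0.0016 for Slc10a1 and 0.00032 for Nr1h4, and the members called in control numbered 6 (Cyp7a1, Cyp8b1, Slc10a1, Abcb11, Nr1h4 and Baat). Without all 8 libraries over 1000 FPKM of Saa1, a limit also chosen after seeing the data, the control P was 0.072 for Cyp7a1, which was not called, 0.0045 for Slc10a1 and 0.0081 for Nr1h4 (n = 12). The members called in IH were then 6 (the 5 called with all libraries, and Slc27a5), against 5690 of all 13215 genes tested. In control this left a single mouse at ZT4, so the members called there are not counted. No single library left out brought Cyp7a1 under the threshold in control (n = 17, P from 0.0185 to 0.161). Leaving out control ZT12 replicate 2 alone sufficed for Slc10a1 (n = 17, P = 0.0044), and control ZT0 replicate 2, ZT12 replicate 2 or ZT16 replicate 3 alone for Nr1h4 (P as low as 0.0038). Over all genes, those called in control went from 2648 to 3620 without the 3 libraries.

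Nr0b2, the repressor induced by Nr1h4, peaked at 5.82 ± 1.00 h in control (n = 18, P = 0.0046) and at 3.22 ± 1.13 h in IH (P = 0.012). Its control call was lost when control ZT8 replicate 2 or 3, ZT16 replicate 3 or ZT20 replicate 2 was left out (n = 17, P up to 0.014) and without the control libraries over 10000 FPKM of Saa1 (n = 16, P = 0.016). Its IH call was gained when IH ZT8 replicate 1, ZT12 replicate 1 or 3, or ZT20 replicate 2 was left out (P as low as 0.0024), so its 2 conditions were close to the threshold on either side. The lowest group mean was at ZT16 in both, at 16.8 ± 3.59 FPKM (SD, n = 3) in control and 10.9 ± 4.74 FPKM (SD, n = 3) in IH. Cyp27a1, Cyp7b1 and Slc27a5 were called in neither condition. For Cyp27a1 the highest group mean was 1.15 times the lowest in control and 1.24 times in IH, and for Slc27a5 1.07 and 1.24 times. Slc27a5 in IH missed the threshold (n = 18, P = 0.013; control P = 0.81) and passed it when IH ZT12 replicate 1 or 2 or ZT20 replicate 2 was left out (P as low as 0.0065).

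**Figure D2:**
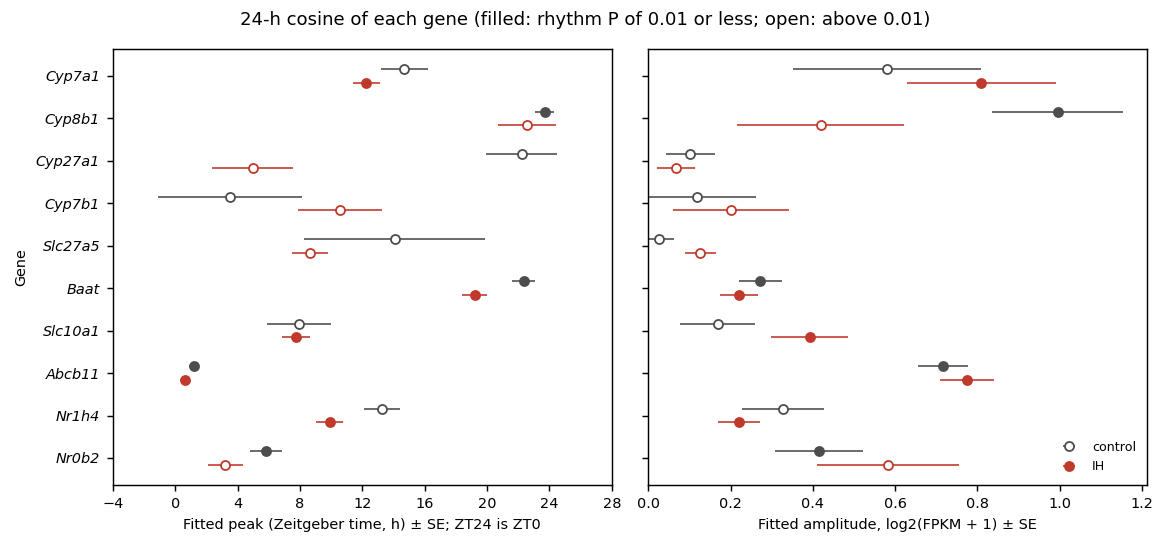
Fitted peak time in hours (left) and fitted amplitude on the log2(FPKM + 1) scale (right) of the 24-h cosine for each gene, with bars of 1 standard error, control in grey and IH in red. Filled points have P of 0.01 or less, and the near-equal filled pairs of Abcb11 (amplitudes 0.72 and 0.78) contrast with the wide bars of Cyp7b1, which was called in neither condition.

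The second comparison asked how levels differed at ZT4 and ZT8, within and at the end of the daily hypoxia, with time point as a factor. Slc10a1, Cyp27a1 and Cyp7a1 rose in IH, 3 of 10 members, against 6.05% of all genes called higher. No member was called lower by limma, against 1.93% of all genes, and 6 had an unadjusted P under 0.05 (those 3, Nr1h4 and Slc27a5 higher, Cyp7b1 lower), against 27.1% of all genes.

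Slc10a1 rose most firmly. At ZT4 the IH mice had 556, 610.0 and 541 FPKM and the control mice 288, 305 and 307 FPKM. At ZT8 they had 576, 607 and 561 FPKM in IH and 396, 464 and 456 FPKM in control. The groups did not overlap at either time, and every IH value lay above every control value of both times. The difference was 0.66 ± 0.09 on the log2 scale, 1.58-fold (SE; adjusted p = 0.0065), and it was called in each of the 12 fits that left out 1 library (adjusted p from 0.0063 to 0.024). In whole liver, more cells of a type and more RNA per cell cannot be told apart. The summed hepatocyte markers moved the same way and did not overlap either, at 55650 to 58890 FPKM in IH against 47670 to 49560 FPKM in control at ZT4, and at 53900 to 56700 against 41300 to 53380 FPKM at ZT8, and their part in the result was not tested. Of the 6 hepatocyte markers 1 was called higher. No marker of cholangiocytes, Kupffer, endothelial, stellate, white or red blood cells was called at these times. At most 2 of a list had an unadjusted P under 0.05. Of 2 intestinal markers tested 1 was called lower, Slc10a2, of the same transporter family as Slc10a1 (limma, -0.775 ± 0.15, adjusted p = 0.0175). Its mean was 4.34 FPKM.

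Cyp27a1, the mitochondrial sterol 27-hydroxylase, rose by less. At ZT4 the values were 350.0, 330.1 and 316 FPKM in IH and 272, 264 and 232 FPKM in control. At ZT8 they were 313, 313 and 294 FPKM in IH and 225, 265 and 271 FPKM in control, again without overlap. The difference was 0.33 ± 0.06, 1.25-fold (SE; adjusted p = 0.015), called in all 12 fits that left out 1 library (adjusted p up to 0.041).

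For Cyp7a1 the ZT4 values were 13.5, 7.29 and 12.0 FPKM in IH against 5.24, 4.75 and 6.24 FPKM in control. At ZT8 they were 26.9, 31.5 and 39.1 FPKM in IH against 23.3, 24.8 and 17.6 FPKM in control. ZT4 was the lowest time of the control mice, and neither time overlapped. The difference was 0.70 ± 0.15, 1.63-fold (SE; adjusted p = 0.023). It was not called without IH ZT4 replicate 3 or without control ZT4 replicate 1 (adjusted p up to 0.057).

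The other 7 members did not pass. Nr1h4 differed by 0.42 ± 0.14 (adjusted p = 0.093, and 0.036 without control ZT8 replicate 2), Cyp7b1, the oxysterol 7-hydroxylase, by -0.57 ± 0.26 (adjusted p = 0.18) and Nr0b2 by -0.31 ± 0.17 (adjusted p = 0.26). The remaining differences were 0.12 ± 0.11 for Cyp8b1, 0.10 ± 0.04 for Slc27a5, -0.05 ± 0.05 for Baat and -0.14 ± 0.09 for Abcb11. The median over the 10 members was 0.11, against 0.04 over all genes tested.

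Saa1 was not called at these time points (adjusted p = 0.17), and its values overlapped between conditions at ZT4 and at ZT8. At ZT4 its values were 2357, 57.4 and 2435 FPKM in control and 30.6, 72.1 and 57.9 FPKM in IH. The 4 acute-phase genes summed there to 96.9 to 4449 FPKM in control against 55.5 to 122 FPKM in IH. At ZT8 Saa1 was at 828, 24.0 and 19.1 FPKM in control and 25.2, 53.1 and 22.0 FPKM in IH, and the medians of this sum were 44.7 FPKM in control and 46.7 FPKM in IH. Of the 4 acute-phase genes none was called, 3 had an unadjusted P under 0.05, and their median difference was -2.13. The control mouse with 57.4 FPKM of Saa1 at ZT4, replicate 2, had 305 FPKM of Slc10a1 and 264 FPKM of Cyp27a1. It had 4.75 FPKM of Cyp7a1 and 34.7 FPKM of Nr1h4. This is a single mouse, and the part of the acute-phase genes in these differences was not tested. Without the 8 libraries over 1000 FPKM of Saa1, which leaves a single control mouse at ZT4, no member was called: Slc10a1 differed by 0.57 (adjusted p = 0.053), Cyp27a1 by 0.29 (adjusted p = 0.082) and Cyp7a1 by 0.70 (adjusted p = 0.12). Genes called over the whole table fell from 799 higher and 255 lower to 19 and 11 in that fit.

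Taken 1 time point at a time, in a fit of the 12 groups, members were called at ZT4 alone. These were Slc10a1 and Nr1h4, 2 of 10, against 1.16% of all genes. Nr1h4 had 61.5, 70.1 and 71.8 FPKM in IH at ZT4 and 37.8, 34.7 and 38.4 FPKM in control, where ZT4 was the lowest time of the day. At ZT8 the groups overlapped, at 68.0, 76.3 and 71.5 FPKM in IH and 63.0, 84.0 and 74.0 FPKM in control. The ZT4 difference was 0.86 ± 0.16, 1.81-fold (SE; adjusted p = 0.0095), and for Slc10a1 0.92 ± 0.18, 1.89-fold (SE; adjusted p = 0.010). Without IH ZT4 replicate 2 the adjusted p of Slc10a1 was 0.061, and Nr1h4 was not called without IH ZT4 replicate 2 or 3 (adjusted p up to 0.060). Without the 8 libraries over 1000 FPKM of Saa1 the differences were 0.95 for Nr1h4 (adjusted p = 0.014) and 0.89 for Slc10a1 (adjusted p = 0.00073), with the lone control mouse at ZT4 assumed to vary like the other groups. Without the 3 libraries over 10000 FPKM, Cyp27a1 also passed at ZT4 (0.38, adjusted p = 0.0081), which it did not with all libraries (adjusted p = 0.13) and did without control ZT12 replicate 2 alone (adjusted p = 0.019).

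At the other time points limma called no member after adjustment, and few genes at all: 0.0% of all genes at ZT0, 0.00757% at ZT8, 0.772% at ZT12, 0.00757% at ZT16 and 0.0% at ZT20. At an unadjusted P under 0.05 the members numbered 1 at ZT0 (Slc27a5, lower; background 7.57%), 3 at ZT8 (Cyp27a1 and Slc10a1 higher, Abcb11 lower; 4.74%), none at ZT12 (24.6%), 2 at ZT16 (Cyp8b1 and Slc10a1, higher; 3.3%) and none at ZT20 (4.74%). Counted by overlap, all 3 IH values lay above all 3 control values for 5 members at ZT4 against 26.7% of all genes, for 4 at ZT8 against 11.0% and for 4 at ZT16 against 10.0%. The same held for 1 member at ZT12, Cyp7b1, against 6.34%, and for none at ZT0 (4.59%) or ZT20 (11.8%). Cyp7b1 at ZT12 had 164, 145 and 197 FPKM in IH and 83.7, 125 and 105 FPKM in control, although its means at ZT4, ZT8, ZT16 and ZT20 were lower in IH.

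**Figure D3:**
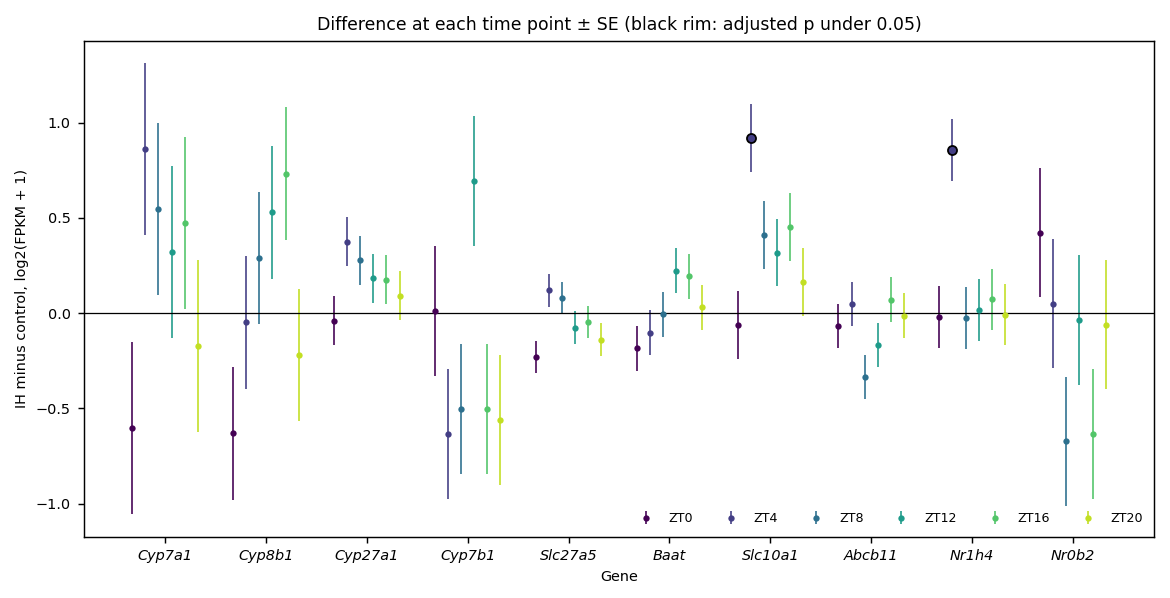
Difference of IH minus control on the log2(FPKM + 1) scale (vertical axis) for each gene, 1 point per time point from ZT0 to ZT20 with bars of 1 standard error from the fit of 12 groups. The points with a black rim, ZT4 of Slc10a1 (0.92) and of Nr1h4 (0.86), are those with adjusted p under 0.05.

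Over all time points, with time as a factor and 18 mice per condition, Slc10a1 was the 1 member called, against 0.303% of all genes higher and 0.053% lower. Its values ran from 217 to 610.0 FPKM in IH, with a median of 408, and from 197 to 464 FPKM in control, with a median of 319. The difference was 0.37 ± 0.09, 1.29-fold (SE; adjusted p = 0.047). This call was close to the threshold: it was lost in 29 of the 36 fits that left out 1 library, with adjusted p from 0.0043 to 0.092. It was kept without control ZT0 replicate 1, any of the 3 control ZT12 replicates, control ZT20 replicate 2, IH ZT0 replicate 2 or IH ZT20 replicate 2. Cyp27a1 differed by 0.18 ± 0.05 (adjusted p = 0.17), and passed without the 3 libraries with high Saa1 (0.16, adjusted p = 0.043). The other 8 members lay between -0.25 ± 0.15 for Cyp7b1 and 0.24 ± 0.19 for Cyp7a1. The median over the members was 0.07, against 0.03 over all genes. Of the markers of other cells, the endothelial gene Lyve1 was called higher in IH (0.31 ± 0.06, adjusted p = 0.018), 1 of 5 in its list, and of 5 Kupffer cell markers none was called and 3 had an unadjusted P under 0.05, with a list median of -0.29. Their part in the result was not tested.

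Variation between mice of a group was described next. Deviations from the group means of log2(FPKM + 1) were correlated over the 36 libraries, which share the group structure and the scaling of each library, as a description. With Saa1, Pearson's r was -0.83 for Slc10a1 (Spearman's rho -0.77), -0.73 for Cyp27a1, -0.68 for Baat, -0.55 for Cyp7a1 and -0.55 for Cyp8b1. Without the 2 libraries whose Saa1 deviated most, r was -0.77, -0.68, -0.60, -0.41 and -0.52. Abcb11 (-0.16), Slc27a5 (0.05) and Cyp7b1 (0.25) followed Saa1 least. The median r over the members was -0.52, against -0.28 over all genes tested, and 5 of 10 members lay under -0.5, against 27.3% of all genes. In IH ZT0 replicate 2, 9 of the 10 members were lowest of the 3 mice, all but Cyp7b1, against 45.1% of all genes. In control ZT12 replicate 2 this held for 8 members (62.0% of all genes) and in control ZT16 replicate 3 for 6 (55.5%). Among the members, the closest were Cyp27a1 and Slc10a1 (r = 0.78, and 0.60 without the 2 farthest libraries) and Cyp8b1 and Baat (r = 0.78, and 0.68 without 2). Of the 45 pairs of members 11 had an r below 0, down to -0.54 for Cyp7b1 and Abcb11, and the median was 0.22, against 0.12 over pairs of a member with another gene tested. Saa1 and the members were measured in the same RNA, and what links them was not tested.

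**Figure D4:**
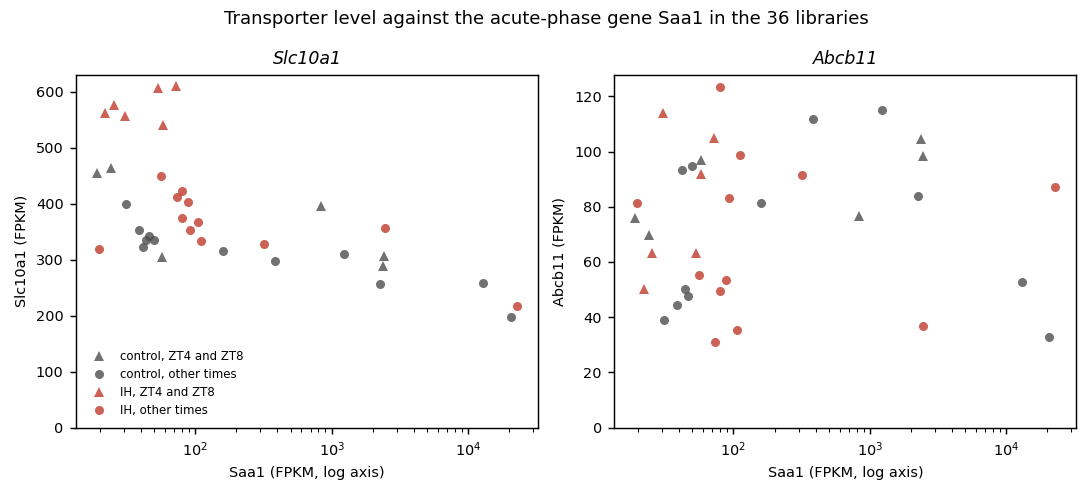
Slc10a1 (left) and Abcb11 (right) in FPKM against Saa1 in FPKM (horizontal log axis) in the 36 libraries, with triangles for ZT4 and ZT8, circles for other times, control in grey and IH in red. Slc10a1 falls towards the libraries with the highest Saa1, down to 197 FPKM, whereas Abcb11 spreads over its daily range at all levels of Saa1.

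The pathway beyond the members was described by lists of 16 synthesis, 15 transport and 14 regulation genes, of which 40 of 45 were tested. At ZT4 and ZT8 in these lists, 5 of 40 rose and none fell, against 6.05% and 1.93% of all genes. Slc10a2, which was called lower, stood in the intestinal list and is not among these 40. An unadjusted P under 0.05 in either direction was found for 12 of 40, against 27.1%. The median difference over the 40 was 0.03, against 0.04 over all genes. The synthesis genes that rose were Cyp39a1, an oxysterol hydroxylase (0.55 ± 0.10, adjusted p = 0.015) and Cyp46a1, a cholesterol hydroxylase (0.91 ± 0.15, adjusted p = 0.012), 2 of 15 tested. Both are low in liver, at means of 7.23 and 2.00 FPKM. Of 14 transport genes tested, Abcg5 (0.43 ± 0.11, adjusted p = 0.034) and Abcg8 (0.45 ± 0.12, adjusted p = 0.040) rose, the 2 subunits of the pump that moves sterols into bile. Of 11 regulation genes tested, Nr1i3 (CAR, a receptor for foreign compounds) rose by 0.66 ± 0.18 (adjusted p = 0.047).

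Over all time points no gene of the 3 lists was called by limma, and 5 had an unadjusted P under 0.05, against 10.8% of all genes. In control 13 of the 40 were rhythmic, against 20.0% of all genes, and in IH 23, against 39.9%, or 5 and 8 in synthesis, 6 and 10 in transport and 2 and 5 in regulation. No cosine differed after adjustment, and 3 did at an unadjusted P under 0.05. Among 10 clock regulators, which include the factors of E-box and D-box, 8 were rhythmic in control and 10 in IH, against the same 20.0% and 39.9%. At ZT4 and ZT8 Tef (0.73 ± 0.16, adjusted p = 0.025), Hlf (0.53 ± 0.12, adjusted p = 0.028) and Bhlhe41 (0.45 ± 0.07, adjusted p = 0.010) rose and Nfil3, which opposes Tef and Hlf at the D-box, fell by 0.52 ± 0.14 (adjusted p = 0.047). That was 3 of 10 higher and 1 lower, against 6.05% and 1.93% of all genes. At these times 9 of 10 had an unadjusted P under 0.05, against 27.1% of all genes. Bhlhe41 was low, at a mean of 0.51 FPKM. None of the 10 was called over all time points, and 2 had an unadjusted P under 0.05, against 10.8% of all genes.

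The genes whose profiles were most like those of 4 members, by Pearson's r of log2(FPKM + 1) over the 36 libraries among 9803 other genes, are given as a description. For Slc10a1 they were Vwce (0.92), Slc2a2 (0.91), the glucose transporter of hepatocytes, and Vps9d1 (0.90). For Cyp8b1 they were Acox2 (0.86), a peroxisomal oxidase of bile acid synthesis and one of the synthesis list, Cth (0.86) and Oxsm (0.85). For Cyp7a1 they were Gm14325 (0.83), Edrf1 (0.80) and Zc3h8 (0.79). The nearest profiles to Nr0b2 were less close, at 0.64 for Vrk3, 0.63 for Thap4 and 0.63 for Otud5.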

How the data were processed

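Poly(A) RNA of 36 mouse livers was sequenced as stranded paired-end libraries. Per the labels and the methods of the study, the authors aligned reads to mm10 with TopHat2 2.1.1 running Bowtie2 and computed FPKM per gene with Cufflinks 2.2.1, and the deposited values are these FPKM, 1 table per condition. The gene annotation is not given in the sources used here. FPKM hold no counts, so depth and the precision it gives for low genes are unknown, and a gene's value depends on the other genes of its library. Columns have the same names in both tables, so tables were assigned to IH or control by table name. Groups came from the sample labels.

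Each table had 24883 rows and 24346 symbols, of which 280 stood on several rows and were left out. The 13215 genes averaging 0.1 FPKM or more were analysed as log2(FPKM + 1), on which fold changes of low genes are understated, with limma 3.58.1 in R 4.3.3 (intensity trend). P-values were adjusted over all genes tested by the method of Benjamini and Hochberg, with 0.05 as threshold. Rhythm was a moderated F test of a 24-h cosine over the 18 libraries of a condition, at a nominal P of 0.01 or less. The interaction of condition with the cosine, the level over all time points (time point as a factor) and the 12 group means were fitted over 36 libraries, and ZT4 with ZT8 over 12. All tests were two-sided. Summaries used Python 3.11.15. The tests were checked on simulated data. The members and lists were chosen with earlier results of these data known. Text names all members, list genes called in a level test, and the 3 nearest profiles of 4 members.

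Alternatives were pseudocount, filter, scaling, other rhythm tests, thresholds, a replicate block and leaving out each library, with the libraries high in Saa1 left out as alternatives added after seeing the data. Same-numbered mice deviated together little on average (mean r = 0.05, 6 of 18 pairs over 0.1). All 3 pairs were positive at ZT12 (r = 0.29, 0.27 and 0.14) and at ZT20 (0.13, 0.16 and 0.05). At the other time points r ran from -0.18 to 0.11. Of 4 markers listed for red cells, Hbb-bt had no row and Hba-a1 stood on several. Gene positions are from GENCODE M21, promoter windows from RefSeq.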

Additional observations from a re-analysis of the deposited data

Results flagged for a closer look

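Slc27a5 moved in opposite directions at different time points without overlap of the 3 mice of each condition. At ZT4 all 3 IH values lay above all 3 control values in 26.7% of all genes. The share of genes lower without overlap at ZT20 was not computed, so the pattern is not read as particular to Slc27a5. At ZT4 the IH mean was 1.09 times the control mean, with 360, 344 and 349 FPKM in IH and 338, 325 and 307 FPKM in control. At ZT20 it was 0.909 times the control mean, with 294, 328 and 292 FPKM in IH and 333, 339 and 333 FPKM in control. The difference between these 2 time points was not tested by itself, and the cosines of both conditions differed with P = 0.066 (n = 36, limma, adjusted p = 0.92). Neither time point passed adjustment (adjusted p = 0.51 and 1.0).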

How the results depend on the processing

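Of 530 values of single members under the alternatives other than leaving out 1 library, 491 kept their side of the threshold, 21 fell short of it and 18 passed it anew. Of the differences called, 0 turned direction. The 1 member called over all time points became 0 with no filter on low genes, with FPKM rescaled to a common sum, after quantile normalization and with no time factor, and 2 at a nominal P of 0.01 or without the 3 libraries over 10000 FPKM of Saa1. The 2 members called at 1 time point became 0 with a common sum and 4 at a nominal P of 0.01. The 3 members called at ZT4 and ZT8 became 0 at ZT8 alone and 0 without the 8 libraries over 1000 FPKM of Saa1. The 5 members rhythmic in IH became 3 by JTK_Cycle, without Cyp7a1 and Nr1h4, and 7 with time points as a factor and 7 at an adjusted p of 0.05. The causes of these changes were not tested. Of all 13215 genes, 5240 were rhythmic in IH with time points as a factor, against 5273 in the main fit. Without the 3 libraries 157 genes were called higher and 26 lower over all time points. A count of members with no share of all genes beside it is not read as a result about the members. Leaving out each library in turn gave 3 to 6 members rhythmic in control, 5 to 7 in IH, 0 to 0 whose cosines differed, 0 to 1 called over all time points, 2 to 4 at ZT4 and ZT8 and 0 to 3 at 1 time point. With the replicate block, 4 members were rhythmic in control and 5 in IH, 0 cosines differed, and 1, 3 and 2 members were called over all time points, at ZT4 and ZT8 and at 1 time point, the same members as without it; the pairing was not supported by the deviations of same-numbered mice. Scaling moved the balance of all genes at ZT4 and ZT8 from 799 higher and 255 lower to 491 and 250 with a common sum, 472 and 452 by the median ratio, and 524 and 429 after quantile normalization. Genes called over all time points went from 40 higher and 7 lower to 142 and 15 without control ZT12 replicate 2. FPKM give no depth, so what low counts limit in Cyp7a1 and Nr0b2 is unknown.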
